A study of Homo sapiens with 12 samples.

Results

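Regorafenib (Rego) is a multikinase inhibitor given in advanced hepatocellular carcinoma (HCC), and 9 kinases that it is known to block were followed here at the transcript level: the receptors KDR, FLT1, FLT4, TEK, KIT, RET, PDGFRA and PDGFRB and the cytoplasmic kinase BRAF. They were chosen by name, as targets of the drug, with no threshold on a measured value. Of the 9 kinases, 3 had a row in the table over all libraries, which lists 15601 genes, and these were BRAF, PDGFRB and RET. The RNA came from SNU449, an established human HCC line of mesenchymal-like phenotype, and from SNU449-Axl-, its derivative in which the receptor tyrosine kinase Axl was disrupted with CRISPR/Cas9. Each was sequenced as control (naive) cells and as Rego-resistant cells, which had been started at 50% of the IC50, raised by 50% of the IC50 every 2 weeks up to 2 times the IC50, and kept with Rego thereafter. The 4 groups hold 3 libraries each, and the libraries of a group are technical triplicates of a single cell population. The p-values below thus measure only the technical spread, and differences between groups cannot be told apart from differences between the populations.

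KDR, FLT1 and FLT4 are the receptors for vascular endothelial growth factors and are best known from blood and lymphatic endothelium. TEK is the angiopoietin receptor of the same vessels, PDGFRA and PDGFRB bind platelet-derived growth factors and mark mesenchymal cells, pericytes and hepatic stellate cells, KIT binds stem cell factor, and RET binds ligands of the GDNF family together with a co-receptor of the GFRA family. BRAF passes the signal of RAS to the kinases MEK and ERK downstream of such receptors. In the liver, Rego is known to act on tumor cells and on the vessels and stroma around them, whereas the cultures studied here hold the tumor line alone.

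Rego is a type II inhibitor, that is, it occupies the kinase pocket when the aspartate-phenylalanine-glycine (DFG) motif at the start of the activation segment is turned outward. The coding bases around this motif are shown because it is a feature of the binding pocket that the 8 receptors have in common. A single stretch of 27 bases was read per receptor from the canonical GENCODE release 44 transcript, 5′ to 3′ in the sense of the gene, and capitals mark the codons of the motif.
KDR: aaaatctgtGACTTTGGCttggcccgg
FLT1: aagatttgtGATTTTGGCcttgcccgg
FLT4: aagatctgtGACTTTGGCcttgcccgg
TEK: aaaatagcaGATTTTGGAttgtcccga
KIT: aagatttgtGATTTTGGTctagccaga
PDGFRA: aagatctgtGACTTTGGCctggccaga
PDGFRB: aagatctgtGACTTTGGCctggctcga
RET: aagatttcgGATTTCGGCttgtcccga
The 8 receptors spelled the motif in 5 ways. KDR, FLT4, PDGFRA and PDGFRB shared 1 spelling, while FLT1, TEK, KIT and RET each had their own. The listed receptors PDGFRB and RET thus differed in their spelling. On GRCh38, each stretch lies within 1 coding exon, for PDGFRB at chr5:150120927-150120953 on the minus strand and for RET at chr10:43120138-43120164 on the plus strand. QuantSeq reads come from the 3′ ends of transcripts, so that the measured values say nothing about the sequence of the motif in these cells.

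The first question was which of the targeted kinases the cells expressed. No row was found for KDR, FLT1, FLT4, TEK, KIT and PDGFRA, by name or by Ensembl identifier, in any of the 8 tables, of which 6 set a pair of groups against each other and 2 cover the 12 libraries. The authors had removed weakly expressed genes before they made the tables, so a missing row says that a gene lay under their filter in that set of libraries, not that it had no reads. For comparison, 12309 of 20033 protein-coding genes of GENCODE release 44 (61.4%) had a row in the table over all libraries. All VEGF receptors and the angiopoietin receptor were thus without a row. PDGFRA, KIT and KDR are neighbors on chromosome 4, with 359.0 kb between the first pair and 337.7 kb between the second, and none of the 3 was listed.

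BRAF and PDGFRB were listed in all 8 tables. RET had a row in 4, namely both tables over all libraries and the pair tables that set Rego-resistant SNU449 against control SNU449-Axl- and against Rego-resistant SNU449-Axl-. Both pair tables with RET hold the Rego-resistant SNU449 libraries, while the table of Rego-resistant and control SNU449 has no row for RET.

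Abundance was read from the authors' mean normalized count, the mean over libraries of read counts divided by size factors. BRAF (ENSG00000157764.14, chr7:140719327-140924929) had a mean normalized count of 38.8 over the 12 libraries, which was above that of 43.0% of the listed genes. PDGFRB (ENSG00000113721.14, chr5:150113839-150155872) reached 10.1, above 25.4% of the genes. For RET (ENSG00000165731.21, chr10:43077064-43130351) it was 2.25, above 7.37% of the genes. All 3 listed kinases were therefore below the middle of the listed genes, in contrast to AXL with a mean of 490 despite its loss in 6 libraries. QuantSeq gives about 1 read per transcript whatever its length, so these counts can be set side by side without a correction for length. Fewer expressing cells and less RNA per cell cannot be told apart in such bulk libraries.

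**Figure D1:**
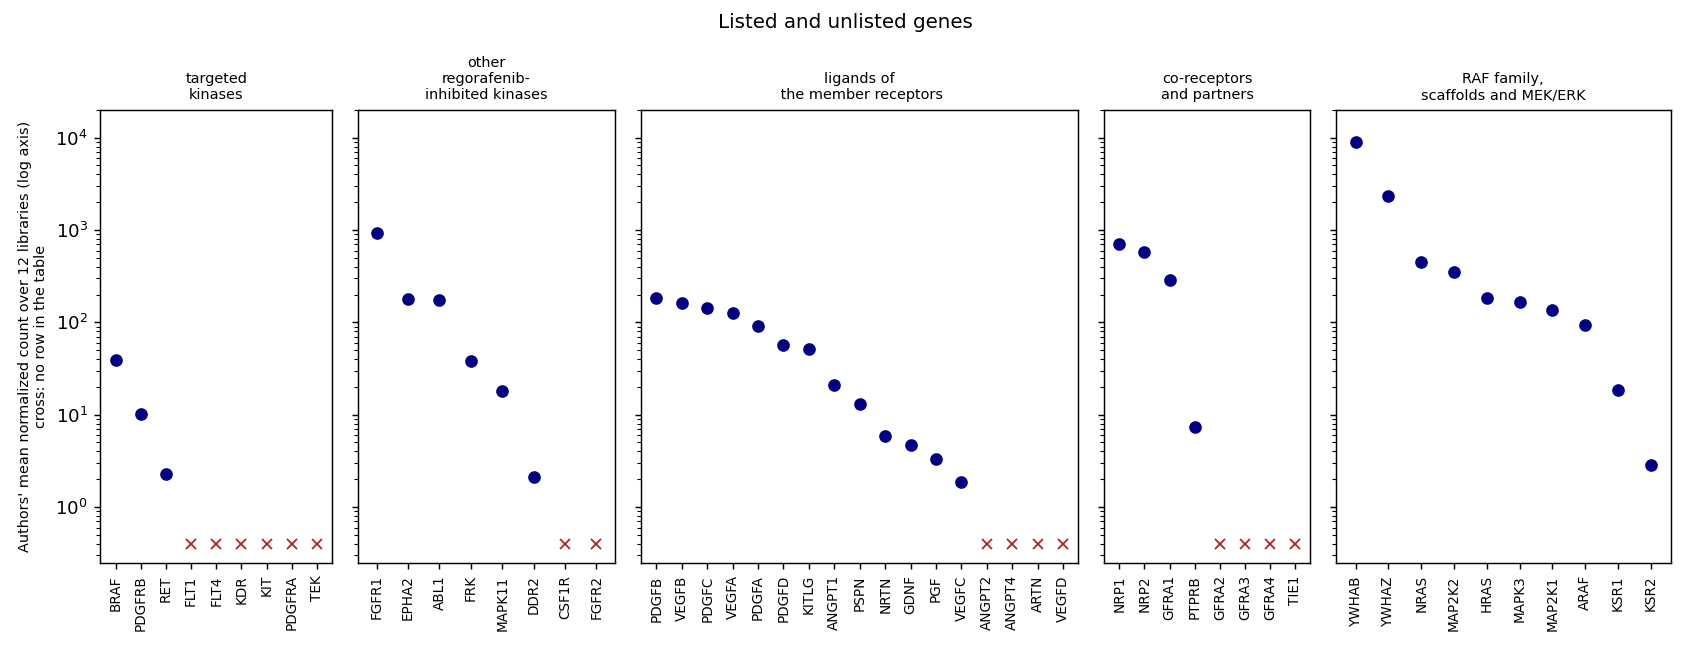
Authors' mean normalized count over the 12 libraries (log axis) of the targeted kinases, further kinases that Rego inhibits, the ligands and co-receptors of the targeted receptors, and the RAF, RAS, MEK and ERK genes; a cross marks a gene with no row. Of the targeted kinases 3 of 9 have a count, the highest being 38.8 for BRAF, whereas all genes shown of the RAF to ERK list have one.

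The cell line was checked against marker genes, since several of the kinases are markers of other cells. Of 9 endothelial markers, 1 had a row (ROBO4), and PECAM1, CDH5 and VWF had none. Of 8 pericyte and hepatic stellate markers 4 were listed (ACTA2, RGS5, LRAT and COL1A1), and of 7 mast cell, melanocyte and blood markers 2 (PMEL and PTPRC). All 4 markers of mesenchymal-like lines (VIM, ZEB1, CDH2 and FN1) were listed, and of 8 hepatocyte markers 3 (FGB, AFP and APOA1), with no row for ALB. Some of these markers moved with the groups in their library values. FN1 was at 1437 to 2923 in control SNU449 and 1351 to 4850 in Rego-resistant SNU449-Axl- but at 336 to 650 in the other groups. COL1A1 spanned 44 to 2380 with its highest libraries in control SNU449-Axl-. FGB was at 189 to 547 in Rego-resistant SNU449-Axl- and at 16 to 72 elsewhere. Their part in the results below was not tested. In the cells labelled SNU449-Axl-, AXL had library values of 33 to 53 against 715 to 1271 in SNU449, with a difference of -4.29 in control cells and -4.52 in Rego-resistant cells on the log2 scale, both called.

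The libraries were then compared with the batch-corrected value that the authors deposited for each library, a whole number read as 2 raised to the variance-stabilized level. These values have a floor well above 0, and near this floor they hardly follow the counts. Differences were fitted on log2(value + 1) with the replicate number as a block and tested with limma over all 15601 genes, and a gene was called at a Benjamini-Hochberg adjusted p under 0.05. A log2 difference on this scale understates the change of a weakly expressed gene.

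BRAF, the kinase between RAS and MEK, was higher in each Rego-resistant SNU449 library than in each control SNU449 library. Its values in control SNU449 were 63, 54 and 47 for replicates 1 to 3, and in Rego-resistant SNU449 they were 81, 81 and 80. In SNU449-Axl-, control cells gave 63, 58 and 80 and Rego-resistant cells 54, 69 and 59. The groups did not overlap in SNU449 but did in SNU449-Axl-, where the highest control library reached the level of the Rego-resistant SNU449 cells. In the table over all libraries, Rego-resistant SNU449 had the narrowest spread of the 4 groups, with 6.35 ± 0.01 on the log2 scale (SD, n = 3), compared to 5.79 ± 0.21 in control SNU449, 6.07 ± 0.24 in control SNU449-Axl- and 5.94 ± 0.18 in Rego-resistant SNU449-Axl-. In the tables of a pair of groups its SD was 0.053 to 0.083, close to the 0.057 to 0.081 of the group it was set against. The batch correction, which ran along the replicate number, leaves nearly mirrored deviations of the groups in such a table. The closeness of these SDs therefore says nothing about the spread of Rego-resistant SNU449. The SDs in the table over all libraries were also taken after this correction, on whole numbers. They describe the corrected values and not the full spread of the replicates.

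The BRAF difference between Rego-resistant and control SNU449 was 0.56 on the log2 scale (SE 0.20, 95% interval 0.15 to 0.98) and was not called (limma, adjusted p = 0.0956). The fit without the replicate block called it (limma, adjusted p = 0.0296). That fit ignores the effect already removed along the replicate number and counts too many degrees of freedom, so its call is no added support. In SNU449-Axl- the difference was -0.13 (95% interval -0.55 to 0.28, limma adjusted p = 0.779), with the opposite sign when the libraries were centred on the spike-in RNAs (0.0026). The effect of Rego in SNU449 minus that in SNU449-Axl- was 0.70 (SE 0.28, 95% interval 0.11 to 1.29), which had an unadjusted p of 0.0228 in limma and an adjusted p of 0.164. A difference of BRAF between the backgrounds was hence not shown after correction over all genes.

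Axl loss was compared within each state of resistance. In Rego-resistant cells, BRAF was at 54 to 69 in SNU449-Axl- and at 80 to 81 in SNU449, without overlap. The difference was -0.41 (95% interval -0.83 to 0.00) and was not called (limma, adjusted p = 0.279), and it was -0.12 with centring on the spike-in RNAs (limma, adjusted p = 0.714). It was called only in the table of that pair of groups fitted without the replicate block (-0.28, limma adjusted p = 0.0115). Such a fit likewise counts too many degrees of freedom. In control cells it was 0.29 (95% interval -0.13 to 0.70, limma adjusted p = 0.445), with overlapping libraries, and 0.49 with centring on the spike-in RNAs (limma, adjusted p = 0.159).

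PDGFRB, which binds PDGF-B and PDGF-D and is typical of mesenchymal cells, had its highest mean in control SNU449 and its lowest in Rego-resistant SNU449-Axl-. The library values for replicates 1 to 3 were 56, 42 and 36 in control SNU449, and 35, 46 and 36 in Rego-resistant SNU449. Control SNU449-Axl- gave 26, 35 and 37, and Rego-resistant SNU449-Axl- 32, 24 and 35. The ranges of the groups met or overlapped in all 4 comparisons that differ in 1 factor. On the log2 scale the means were 5.49 ± 0.32, 5.31 ± 0.21, 5.06 ± 0.27 and 4.95 ± 0.27 (SD, n = 3) in the order given.

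None of the PDGFRB differences was called. Rego-resistant and control cells differed by -0.18 in SNU449 (95% interval -0.64 to 0.28) and by -0.10 in SNU449-Axl- (-0.57 to 0.36), with limma adjusted p of 0.705 and 0.850, and the latter turned to 0.033 with centring on the spike-in RNAs. Axl loss gave -0.43 in control cells (-0.89 to 0.03) and -0.36 in Rego-resistant cells (-0.82 to 0.10), with limma adjusted p of 0.268 and 0.420, and -0.23 and -0.07 with centring on the spike-in RNAs. The effects of Rego in the backgrounds differed by -0.07 (-0.73 to 0.58, limma adjusted p = 0.937), or by -0.16 with centring on the spike-in RNAs. Between Rego-resistant SNU449-Axl- and control SNU449, which differ in both factors, the libraries did not overlap, and the difference of -0.54 (-0.999 to -0.08) was not called either (limma, adjusted p = 0.170). In that comparison 7.11% of all genes were called and the libraries of 28.7% did not overlap.

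RET, the receptor of the GDNF family, was close to the floor of the values. Replicates 1 to 3 gave 23, 22 and 22 in control SNU449, and 31, 29 and 32 in Rego-resistant SNU449. The control SNU449-Axl- libraries had 31, 22 and 29 and the Rego-resistant ones 20, 32 and 22. As for BRAF, the Rego-resistant SNU449 libraries lay above all control SNU449 libraries, whereas the SNU449-Axl- libraries spanned both levels. The difference in SNU449 was 0.44 (SE 0.20, 95% interval 0.03 to 0.85) and in SNU449-Axl- -0.16 (-0.57 to 0.25), with limma adjusted p of 0.198 and 0.732. The effects differed by 0.60 (0.02 to 1.18, limma adjusted p = 0.242). For RET, Axl loss gave 0.27 in control cells (-0.14 to 0.68) and -0.33 in Rego-resistant cells (-0.74 to 0.08), with limma adjusted p of 0.478 and 0.399. With centring on the spike-in RNAs these were 0.47 and -0.04, and the Rego difference in SNU449-Axl- was -0.02. The blood cell marker PTPRC and the hepatocyte marker APOA1, with mean normalized counts of 1.12 and 1.14, ranged from 19 to 31 in the same libraries, while RET ranged from 20 to 32. RET thus covered a range like that of these less abundant genes, while its libraries within control and within Rego-resistant SNU449 lay close together.

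**Figure D2:**
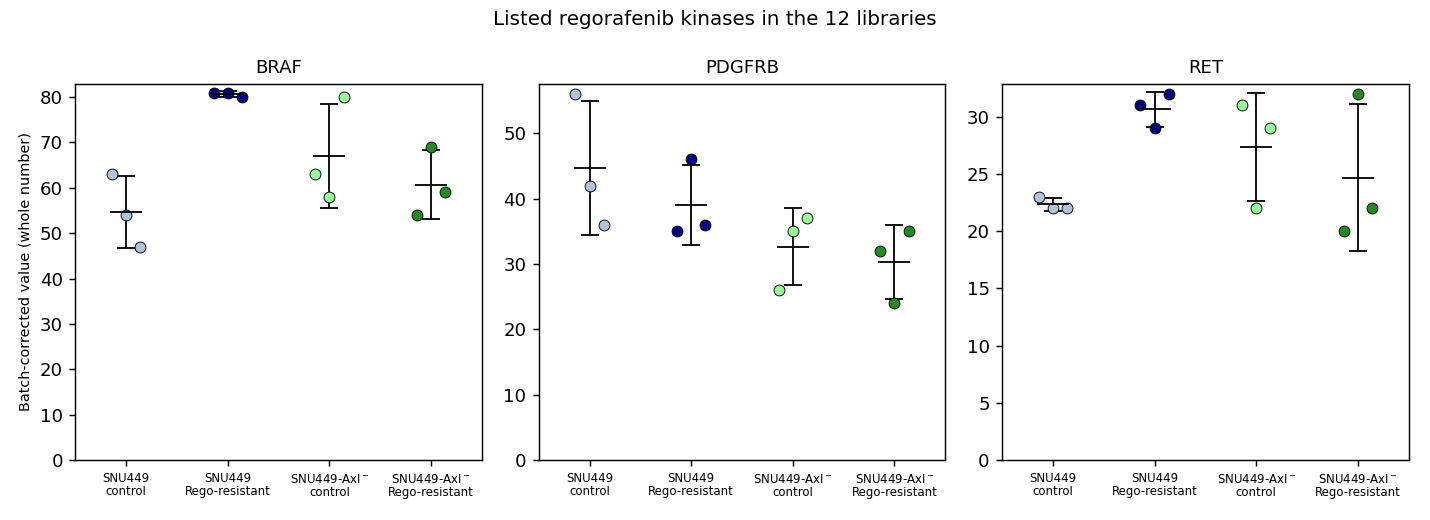
Batch-corrected value (vertical axis, whole number, starting at 0) of BRAF, PDGFRB and RET in each library of the 4 groups; points are libraries in the order of replicates 1 to 3, and bars are the mean and SD of 3 libraries. For BRAF the Rego-resistant SNU449 libraries sit at 80 to 81, above the control SNU449 libraries at 47 to 63, and for PDGFRB the groups that differ in 1 factor meet or overlap.

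Taking the 3 listed kinases as a group, 0 of 3 were called by Rego resistance in SNU449, where 7.81% of all genes were called. BRAF and RET passed an unadjusted p under 0.05 in limma, and the fit without the replicate block called BRAF alone. Likewise, 0 of 3 were called by Rego resistance in SNU449-Axl- (4.35% of all genes), by Axl loss in control cells (7.45%) and by Axl loss in Rego-resistant cells (4.37%), with none at an unadjusted p under 0.05 in limma. For the difference of the Rego effects it was 0 of 3 against 5.87% of all genes, with BRAF and RET at an unadjusted p under 0.05 in limma. Libraries of Rego-resistant and control SNU449 did not overlap for 2 of 3 kinases, BRAF and RET, and for 27.9% of all genes. The corresponding number was 0 of 3 in SNU449-Axl- (29.1% of all genes), 0 of 3 for Axl loss in control cells (27.9%) and 1 of 3, BRAF, for Axl loss in Rego-resistant cells (28%). The median difference of all genes was within 0.02 of 0 in each comparison. With so few listed kinases, these counts cannot be told from the background shares.

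**Figure D3:**
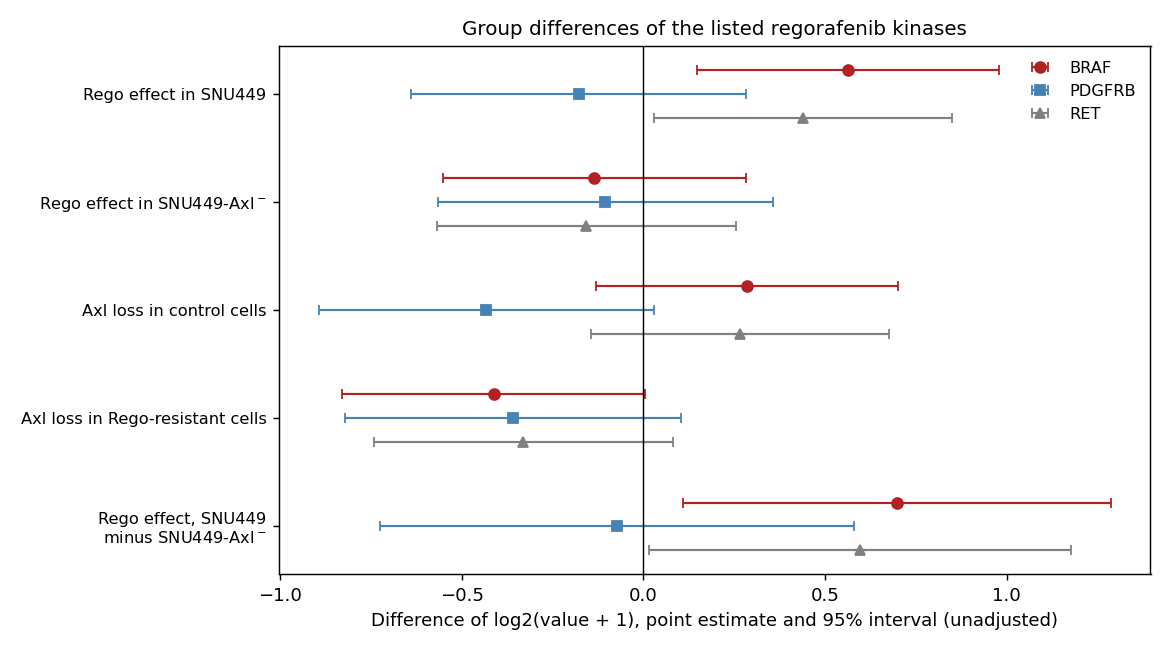
Differences of log2(value + 1) between groups for BRAF, PDGFRB and RET (horizontal axis) with the unadjusted 95% interval from limma, for the 4 comparisons that differ in 1 factor and for the difference of the Rego effects. The intervals of BRAF and RET for Rego in SNU449 (0.15 to 0.98 and 0.03 to 0.85) lie above 0, and all intervals of PDGFRB shown include 0.

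Because the library values have a floor, the mean normalized count of each group was also solved by least squares from the authors' mean counts of the 6 pair tables and the table over all libraries. Over the 8196 genes with a mean above 50 the median error of this solution was 0.26%. For BRAF it gave 25.7 normalized counts per library in control SNU449, 49.5 in Rego-resistant SNU449, 42.5 in control SNU449-Axl- and 36.9 in Rego-resistant SNU449-Axl-, with an error of at most 0.487% in any table. The order of the groups was the same as that of the library values. Both rest on the same libraries, so a shared order is no independent support. For PDGFRB the solved means were 15.0, 10.8, 8.20 and 6.11 in the same order (largest error 2.76%), again as in the library values.

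RET has too few tables for a unique solution, and only bounds were obtained. Its mean normalized count lay between 3.10 and 6.03 in Rego-resistant SNU449, between 0 and 2.58 in control SNU449, between 0.673 and 3.61 in control SNU449-Axl- and between 0 and 2.58 in Rego-resistant SNU449-Axl-. The bounds allow a tolerance of 3% on each table. At this tolerance the interval of Rego-resistant SNU449 was apart from that of control SNU449 and of Rego-resistant SNU449-Axl-, at a level of single reads. Among the solved genes with few counts in a group, the largest error was 6.42% for ANGPT1 and 7.20% for AXL. Wider tolerances were not run, so a difference of RET between the groups is not shown by these bounds. Solved means carry no replicate error and were not tested.

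**Figure D4:**
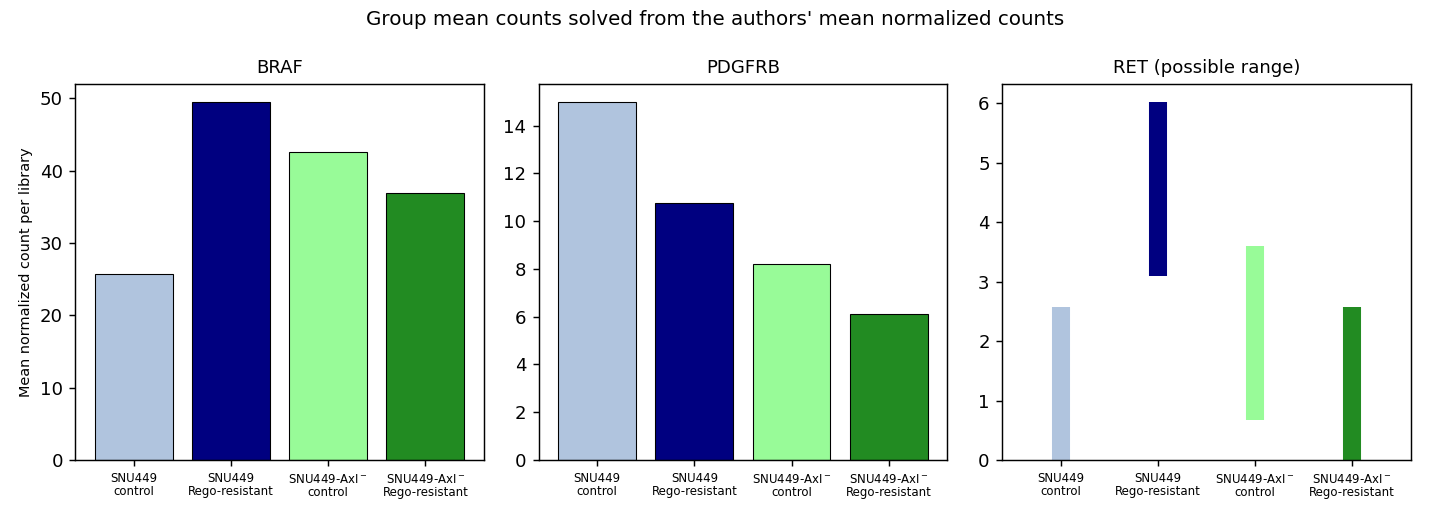
Mean normalized count per library in each group (vertical axis, starting at 0), solved from the authors' means; bars are the solutions for BRAF and PDGFRB, and the vertical lines for RET span the values that the tables allow at a tolerance of 3%. BRAF is lowest in control SNU449 (25.7) and highest in Rego-resistant SNU449 (49.5), and RET stays at or below 6.03 in all groups.

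Among themselves, the listed kinases did not vary in one way. Across the 12 libraries, BRAF and RET had a Pearson r of 0.82, BRAF and PDGFRB of 0.05, and RET and PDGFRB of -0.34. These are descriptions over libraries that share their groups, and the values of RET are near the floor. The genes whose pattern was most like that of BRAF, among 9521 genes with a mean normalized count of at least 30, were ZDHHC9 (r = 0.89), KDELR1 (r = 0.89) and CENPBD2P (r = 0.89). Each had its highest mean in Rego-resistant SNU449 and its lowest in control SNU449 as BRAF did. These genes were picked for their likeness to BRAF, so the shared order is no further result. Neither PDGFRB nor RET reached the count required for this search. BRAF overlaps NDUFB2 on the opposite strand and has a pseudogene, BRAFP1, on chromosome X. Per the study's methods, STAR was run so that a read could keep many alignment positions, and whether such reads entered the gene counts is not given in the sources used here, so part of the BRAF count is uncertain.

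The genes of the ligands of the targeted receptors were followed next, and several were called. Of 17 ligand genes, 13 were listed and VEGFD, ANGPT2, ANGPT4 and ARTN had no row. By Rego resistance, 1 rose and 2 fell in SNU449, where 7.81% of all genes were called, with a median difference of -0.30 over the 13 genes, and 1 rose and 0 fell in SNU449-Axl- (4.35% of all genes), with a median of 0.36. Axl loss raised 1 and lowered 2 in control cells (7.45% of all genes called, median 0.00) and raised 3 and lowered 0 in Rego-resistant cells (4.37%, median 0.26). The Rego effect was lower in SNU449 than in SNU449-Axl- for 3 ligand genes and higher for 0 (5.87% of all genes, median -0.70).

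The ligands of PDGFRB moved in opposite directions upon Rego resistance in SNU449. PDGFB, which encodes the main ligand of PDGFRB, had values of 157, 76 and 68 in control SNU449 and 254, 266 and 218 in Rego-resistant SNU449. It was higher in all Rego-resistant libraries, by 1.38 on the log2 scale (limma, adjusted p = 0.0128). The call was lost when replicate 2 or 3 of control SNU449 or replicate 1 or 2 of Rego-resistant SNU449 was left out, with differences of 1.08 to 1.35 and limma adjusted p of 0.0554 to 0.0919. In SNU449-Axl-, PDGFB was at 95, 211 and 142 in control and 216, 191 and 391 in Rego-resistant cells, a difference of 0.83 that was not called (limma, adjusted p = 0.169). PDGFB was not shown to respond differently in the backgrounds (0.55, limma adjusted p = 0.569).

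PDGFD, whose product also binds PDGFRB, fell in SNU449 from 98, 85 and 153 in control cells to 45, 55 and 57 in Rego-resistant cells. The decrease of PDGFD was -1.04 (limma, adjusted p = 0.0151), and its call was lost without replicate 3 of control SNU449 (-0.72, adjusted p = 0.113) or replicate 1 of Rego-resistant SNU449 (-0.91, adjusted p = 0.0858). In SNU449-Axl- it was at 87, 63 and 62 in control and 90, 117 and 65 in Rego-resistant cells, with overlapping groups (0.33, limma adjusted p = 0.529). The Rego effects differed by -1.38 (limma, adjusted p = 0.0285), a call that was lost on leaving out any of 7 of the 12 libraries (-1.05 to -1.43, limma adjusted p of 0.0521 to 0.116). These 7 were replicate 3 of control SNU449, replicates 1 and 2 of Rego-resistant SNU449, replicates 2 and 3 of control SNU449-Axl- and replicates 1 and 2 of Rego-resistant SNU449-Axl-.

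PDGFC, which encodes a ligand of PDGFRA, a receptor without a row, differed between the groups in opposite directions in the 2 states of resistance. Its values were 258, 151 and 180 in control SNU449, 113, 109 and 145 in Rego-resistant SNU449, 55, 90 and 80 in control SNU449-Axl- and 265, 288 and 205 in Rego-resistant SNU449-Axl-. The level was thus lowest in control SNU449-Axl-, and its libraries did not overlap those of any other group. PDGFC rose by 1.75 with Rego resistance in SNU449-Axl- (limma, adjusted p = 0.000303), whereas the difference in SNU449 was -0.65 (limma, adjusted p = 0.116). The difference of both effects was -2.41 (limma, adjusted p = 0.000363). Axl loss lowered PDGFC by 1.37 in control cells (limma, adjusted p = 0.00175) and raised it by 1.04 in Rego-resistant cells (limma, adjusted p = 0.0191). The last call, unlike the other PDGFC calls, was lost without replicate 1 or 2 of either Rego-resistant group (0.90 to 0.98, limma adjusted p of 0.0907 to 0.143). PDGFA, whose product also binds PDGFRA, was not called in any comparison (-0.70 to 0.78 on the log2 scale).

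KITLG encodes stem cell factor, the ligand of KIT, which had no row. KITLG was at 106, 102 and 91 in control SNU449 and at 54, 46 and 41 in Rego-resistant SNU449, and at 81, 49 and 53 in control and 57, 114 and 134 in Rego-resistant SNU449-Axl-. All Rego-resistant SNU449 libraries were below all control SNU449 libraries, by -1.07 on the log2 scale (limma, adjusted p = 0.0202). The Rego effects of the backgrounds differed by -1.75 (limma, adjusted p = 0.0110), and in Rego-resistant cells Axl loss raised KITLG by 1.02 (limma, adjusted p = 0.0414). Leaving out single libraries ended the first call for replicates 1 and 2 of control and 2 and 3 of Rego-resistant SNU449 (-0.95 to -1.06, limma adjusted p of 0.0747 to 0.107). It ended the second for replicate 2 of control and of Rego-resistant SNU449-Axl- (-1.57 and -1.58, limma adjusted p of 0.0522 and 0.0512). The third was lost for 8 of the 12 libraries (0.70 to 1.15, limma adjusted p of 0.0502 to 0.249) and held only without replicate 1 or 3 of control SNU449, or replicate 1 of either SNU449-Axl- group, and it was also lost among genes with a mean count of at least 50 (adjusted p = 0.0548).

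ANGPT1, the activating ligand of the unlisted receptor TEK, was higher in SNU449-Axl- in both states. In SNU449 its values were 24, 37 and 22 in control and 28, 30 and 22 in Rego-resistant cells, close to the floor. In SNU449-Axl- they were 80, 52 and 97 in control and 55, 50 and 61 in Rego-resistant cells, above every SNU449 library. Axl loss raised ANGPT1 by 1.42 in control cells (limma, adjusted p = 0.00135) and by 1.03 in Rego-resistant cells (limma, adjusted p = 0.0209). The latter call was lost without replicate 1 or 3 of Rego-resistant SNU449 or any replicate of Rego-resistant SNU449-Axl- (0.86 to 1.12, limma adjusted p of 0.0617 to 0.116). The solved mean normalized counts of ANGPT1 were 4.10 and 1.08 in control and Rego-resistant SNU449 and 50.8 and 28.2 in SNU449-Axl-, with an error of up to 6.42%.

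Of the VEGF genes, whose receptors had no row, only VEGFB was called. It encodes a ligand of FLT1 and was at 250, 162 and 233 in control SNU449 and 113, 157 and 79 in control SNU449-Axl-, without overlap. The difference was -0.91 (limma, adjusted p = 0.0329), and the call was lost without replicate 1 or 3 of control SNU449 or of control SNU449-Axl- (-0.58 to -0.92, limma adjusted p of 0.0749 to 0.20), with centring on the spike-in RNAs (adjusted p = 0.0903) and in the table of that pair of groups (adjusted p = 0.110). VEGFA, the ligand of KDR and FLT1, had differences of -0.21 to 0.19 and was not called.

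For RET, the ligands GDNF, NRTN and PSPN were listed at mean normalized counts that were low, and none was called. GDNF had values of 52, 52 and 22 in control SNU449 and of 21 to 31 in the other groups, so that 2 control SNU449 libraries stood apart from the third. NRTN ranged from 19 to 47 and PSPN from 27 to 54 over all libraries.

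The co-receptor GFRA1, which presents GDNF to RET, was the most strongly changed partner of a listed kinase. It had values of 160, 145 and 56 in control SNU449 and 400, 457 and 743 in Rego-resistant SNU449, and of 377, 295 and 263 in control SNU449-Axl- and 174, 213 and 382 in its Rego-resistant counterpart. Each Rego-resistant SNU449 library was above each other library. GFRA1 rose by 2.22 with Rego resistance in SNU449 (limma, adjusted p = 0.000569), while in SNU449-Axl- the difference was -0.35 (limma, adjusted p = 0.659). The effects differed by 2.57 (limma, adjusted p = 0.00455). Axl loss raised GFRA1 by 1.49 in control cells (limma, adjusted p = 0.0139), a call lost without replicate 3 of control SNU449 (0.85, adjusted p = 0.0770) or replicate 1 or 2 of control SNU449-Axl- (1.29 and 1.53, limma adjusted p of 0.0642 and 0.0586). Of the 8 co-receptors and partners 4 were listed, and besides GFRA1 these were the VEGF co-receptors NRP1 and NRP2 and the phosphatase PTPRB, with 0 calls in the 5 comparisons by limma.

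**Figure D5:**
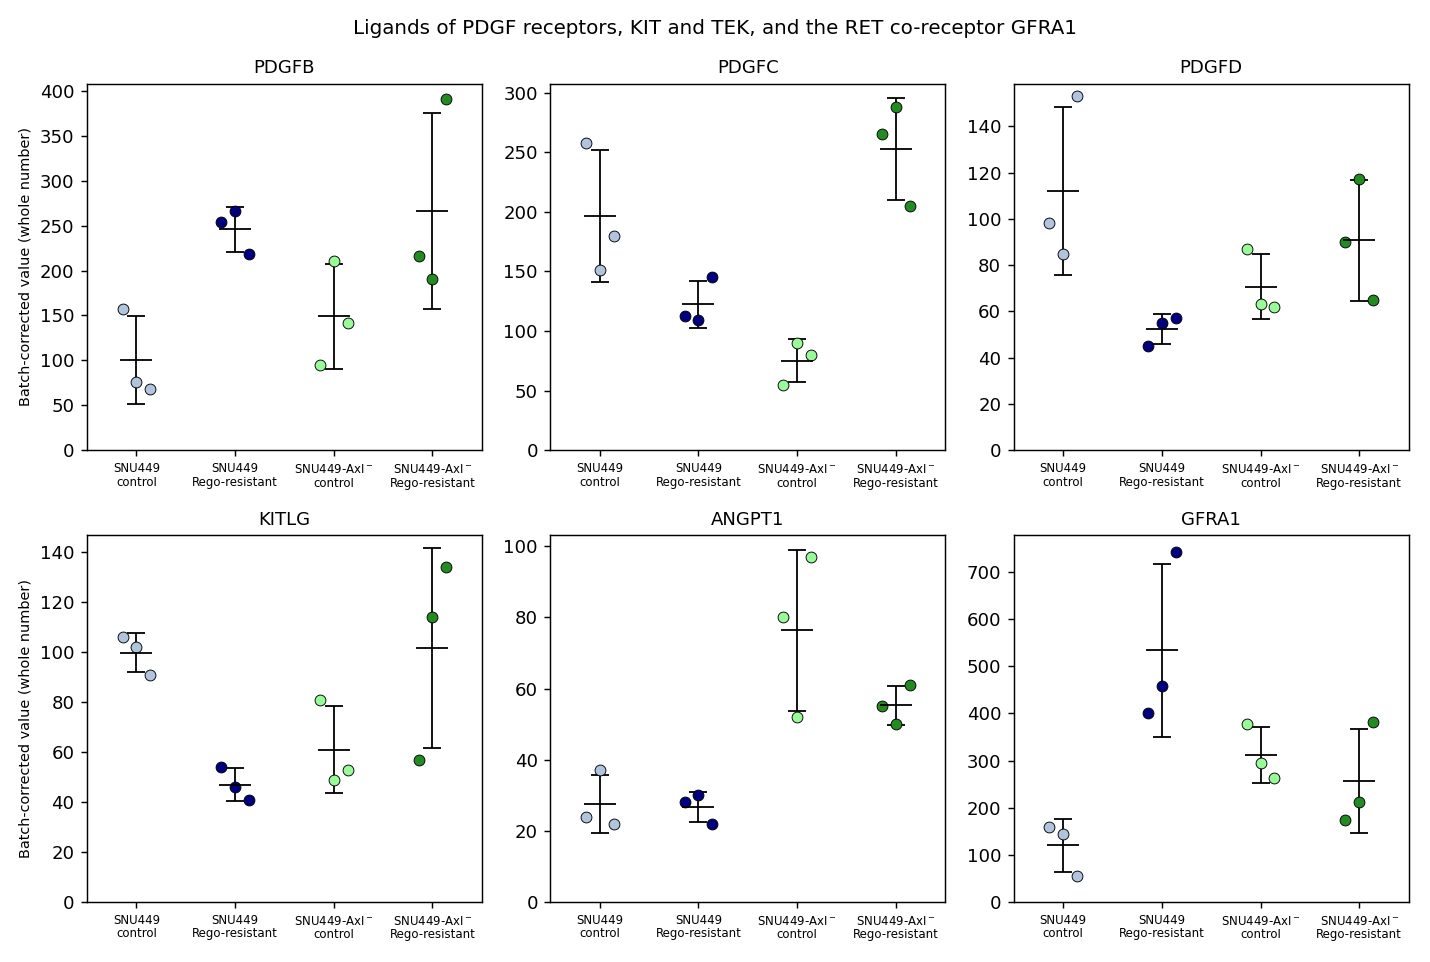
Batch-corrected value (vertical axes, starting at 0) of PDGFB, PDGFC, PDGFD, KITLG, ANGPT1 and GFRA1 in each library; points are libraries in the order of replicates 1 to 3, and bars are the mean and SD of 3 libraries per group. GFRA1 is at 400 to 743 in Rego-resistant SNU449, above all other libraries, and ANGPT1 is at 50 to 97 in SNU449-Axl-, above its 22 to 37 in SNU449.

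The partners of BRAF were all listed, that is 13 of 13 genes of the RAS, RAF, scaffold, MEK and ERK list. By Rego resistance, 1 rose and 0 fell in SNU449 (median -0.18), and 0 rose and 1 fell in SNU449-Axl- (median -0.24), where 7.81% and 4.35% of all genes were called. Axl loss changed 0 of 13 in either state by limma (medians -0.02 and -0.12), and 1 gene differed in its Rego effect (median 0.06), with 7.45%, 4.37% and 5.87% of all genes called. Single calls among 13 genes are near these shares.

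MAP2K2, which encodes the MEK2 kinase that BRAF phosphorylates, was at 288, 236 and 266 in control SNU449 and 395, 463 and 529 in Rego-resistant SNU449. In SNU449-Axl- it was at 442, 434 and 334 in control and 303, 321 and 325 in Rego-resistant cells. The groups did not overlap in either background, and their order was opposite. The rise in SNU449 was 0.80 (limma, adjusted p = 0.0128), the difference in SNU449-Axl- was -0.34 (limma, adjusted p = 0.366), and the effects differed by 1.14 (limma, adjusted p = 0.0160). The rise was not called without replicate 2 of control SNU449 or replicate 2 or 3 of Rego-resistant SNU449 (0.67 to 0.80, limma adjusted p of 0.0546 to 0.0849), nor in the table of that pair of groups (adjusted p = 0.0550). The difference of the effects was not called without replicate 2 of either control group or replicate 1 of Rego-resistant SNU449-Axl- (1.04 to 1.10, limma adjusted p of 0.0511 to 0.0643), nor with centring on the spike-in RNAs (adjusted p = 0.0585).

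ARAF, a paralog of BRAF, was at 154, 161 and 134 in control and 100, 79 and 87 in Rego-resistant SNU449-Axl-, and fell by 0.75 on the log2 scale (limma, adjusted p = 0.0371). This call was lost without replicate 1 or 2 of control SNU449-Axl- or any replicate of Rego-resistant SNU449-Axl- (-0.65 to -0.87, limma adjusted p of 0.0684 to 0.215) and with centring on the spike-in RNAs (adjusted p = 0.153). MAP2K1, which encodes MEK1, MAPK3, an ERK kinase, and the RAS genes HRAS and NRAS were not called. The difference between BRAF and ARAF was not tested.

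Finally, 10 further kinases that Rego is known to inhibit were counted. FGFR2 and CSF1R were among those with no row, and of the 7 listed, 0 were called by Rego resistance in either background and for the difference of the effects. Axl loss raised 2 in control cells (median 0.29) and 1 in Rego-resistant cells (median 0.04), with 7.45% and 4.37% of all genes called. FGFR1, a receptor of fibroblast growth factors, had values of 517, 460 and 699 in control and 434, 527 and 496 in Rego-resistant SNU449, against 1385, 1031 and 1096 in control and 1499, 1863 and 1226 in Rego-resistant SNU449-Axl-. Every SNU449-Axl- library was above every SNU449 library. Axl loss raised FGFR1 by 1.08 in control cells (limma, adjusted p = 0.00424) and by 1.64 in Rego-resistant cells (limma, adjusted p = 0.000157). The mean normalized count of FGFR1 solved for Rego-resistant SNU449-Axl- was 1631, compared to 36.9 for BRAF. MAPK11, a p38 kinase, was at 40, 34 and 35 in control SNU449 and 54, 65 and 58 in control SNU449-Axl-. It rose by 0.68 (limma, adjusted p = 0.0255), a call lost without replicate 2 or 3 of either control group (0.59 to 0.69, limma adjusted p of 0.0677 to 0.145) and in the table of that pair (adjusted p = 0.0727).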

How the data were processed

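RNA of 4 groups of cells was sequenced in 12 libraries by the authors with QuantSeq. Per the labels and the study's methods, reads were trimmed with cutadapt 4.0, aligned by STAR 2.5.3a to the GRCh38 genome (GENCODE release 40, plus spike-in RNAs), counted per gene, filtered for low counts and modelled in DESeq2 with the preparation date. The deposited library values are scores: whole numbers read as 2 to the power of variance-stabilized levels, taken after the effect of the preparation was removed, scaled separately in each table. The signal of each table is the mean normalized count, which the authors averaged over its libraries. The authors' fold changes and p-values in the tables were not used. Depth per library is unknown, so no counting interval is given.

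The values were fitted on log2(value + 1) by lmFit and trended eBayes of limma 3.58.1 (R 4.3.3) over 15601 genes of the 12-library table, with 4 group means and the replicate number as a block. The block was used because the removed effect ran along the replicate number: means over libraries with the same number were nearly equal. A fit without the block counts too many degrees of freedom. The fit was tested on simulated data. Named genes are all 9 kinases, the called genes of the lists, partners of a listed kinase, AXL, and the 3 genes most like a kinase with a mean count of at least 30. The kinases and gene lists were chosen with earlier results of these data known, the lists from general knowledge. Alternatives were no block, other tables, pseudocount 0, centring on all genes or spike-in RNAs, filters at 10 and 50, no trend and leaving out each library. Some genes of the lists and 1 sequence are not reported here by name.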

Additional observations from a re-analysis of the deposited data

Results flagged for a closer look

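Of the listed partners of the targeted kinases (13 ligand genes, 4 co-receptors and partners, and 13 genes of the RAS to ERK list), 5 differed in their Rego effect between SNU449 and SNU449-Axl- by the interaction term in limma, by which 5.87% of all genes were called. Given as the effect in SNU449 minus that in SNU449-Axl- on the log2 scale, the difference was 2.57 for GFRA1 and 1.14 for MAP2K2. It was -2.41 for PDGFC, -1.75 for KITLG and -1.38 for PDGFD. None of the 3 listed kinases differed in this way after adjustment, where BRAF had 0.70 and RET 0.60. FN1 moved in the same libraries (-4.71, limma adjusted p = 3.44e-05), as did COL1A1 (4.76, limma adjusted p = 0.00268) and FGB (-2.38, limma adjusted p = 0.0126), and their part in these values was not tested. The FGB call was lost without replicate 2 of Rego-resistant SNU449-Axl- (-1.84, limma adjusted p = 0.0537). Calls for PDGFD, KITLG and MAP2K2 were also lost on leaving out certain single libraries, while those for GFRA1 and PDGFC held. The gene lists were chosen with earlier results of these data known, which limits the comparison with the share of all genes.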

How the results depend on the processing

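The count of listed kinases called was 0 in every comparison and stayed at 0 under the alternatives run, with 3 exceptions. All 3 came from fits without the replicate block, which count too many degrees of freedom. Without the replicate block, 1 kinase (BRAF) was called for Rego resistance in SNU449. In the tables of a pair of groups without the replicate block, an alternative chosen after seeing the data, 1 (BRAF) was called for Rego resistance in SNU449 (0.42, limma adjusted p = 0.0117) and 1 (BRAF) for Axl loss in Rego-resistant cells (-0.28, limma adjusted p = 0.0115). On leaving out single libraries the count was 0 to 0, and the BRAF difference in SNU449 was 0.42 to 0.71 (limma, adjusted p of 0.0717 to 0.314). No replicate pairing is given by the labels, and the replicate block changed no other kinase call. It lowered the genes called for Rego resistance from 2175 to 1219 in SNU449 and from 1552 to 678 in SNU449-Axl-, and for Axl loss from 2182 to 1163 in control and from 1503 to 682 in Rego-resistant cells. For the difference of the Rego effects the numbers were 1826 and 916. Centring on the spike-in RNAs moved the median of all genes to 0.14 for Rego in SNU449-Axl-, to 0.21 and 0.31 for Axl loss in control and Rego-resistant cells, and to -0.10 for the difference. The share of higher calls went from 58.4%, 54%, 55.9% and 50.3% to 84.2%, 84.5%, 96.2% and 36.6%, respectively, and 1799 genes were called for Axl loss in Rego-resistant cells. Centring on the median of all genes gave 48% higher calls for Rego in SNU449-Axl-. The tables of the pairs, with the block, called 603 genes for Rego in SNU449 and 603 and 1160 for Axl loss in control and Rego-resistant cells. Without it the 4 pairs gave 2947 and 3566 for Rego in SNU449 and SNU449-Axl-, and 3750 and 4024 for Axl loss. Leaving out single libraries gave 740 to 1299 and 205 to 891 genes for Rego, 540 to 1275 and 219 to 826 for Axl loss and 523 to 922 for the difference. With a mean count of at least 50, 746 were called for Rego in SNU449 and 450 for Axl loss in Rego-resistant cells. That filter leaves none of the 3 kinases to test, and a filter at 10 leaves BRAF and PDGFRB. Uncalled differences near 0 changed sign in some fits, by limma with an adjusted p of at least 0.847 in each such fit. With centring on the spike-in RNAs, Rego in SNU449-Axl- gave 0.0026 for BRAF and 0.033 for PDGFRB. On leaving out single libraries, it ranged from -0.26 to 0.039 for BRAF, from -0.31 to 0.10 for PDGFRB and from -0.42 to 0.015 for RET. Over the same fits, PDGFRB ranged from -0.37 to 0.052 for Rego in SNU449 and from -0.28 to 0.16 for the difference of the effects, where AXL ranged from -0.043 to 0.51. The cause was not tested.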
